A study of Mus musculus with 4 samples.

Results

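The genes described here were 10 genes of the Notch pathway in the mouse: the receptors Notch1, Notch2, Notch3 and Notch4, the ligands Dll4, Jag1 and Jag2, the nuclear mediator Rbpj, and the effectors Hey1 and Hey2. They were named as a set by their known roles, at a time when earlier results of these data were known. All 10 were found by symbol among the 32285 genes of the count tables. Their levels were followed across the cell classes of the embryonic ventricle, with and without Ets1 in the endothelium.

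Single-cell RNA sequencing was done on E14.5 ventricles of C57BL/6 embryos, to ask what loss of the transcription factor Ets1 from the endothelium does to the cells of a ventricle with thin compact myocardium. The eKO (endothelial knockout) group carried Tie2Cre and Ets1 fl/fl, with both Ets1 alleles floxed, and the control group carried Tie2Cre and Ets1 fl/+, so that the controls also carried Cre and 1 floxed allele. There were 2 libraries per group, each from 3 pooled ventricles, of embryos of both sexes, with no treatment. The paper names a batch correction among its steps and does not state which libraries formed a batch. Tie2Cre recombines in endothelial and endocardial cells, in cells derived from them and in blood cells, so the deletion was not limited to 1 of the endothelial classes.

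Transcripts were counted as unique molecular identifiers (UMIs), read from the 3′ ends of mRNAs in single droplets. Control 1, control 2, eKO 1 and eKO 2 held 12641, 7949, 10010 and 14951 cell barcodes with 124140739, 76931208, 95131419 and 102872196 UMIs. After filters and removal of predicted doublets, 10311, 6816, 8560 and 12316 cells were kept, with medians of 8687, 8582, 8241 and 5303 UMIs per cell, and eKO 2 was the shallowest library per cell. Between 19 and 47 barcodes were shared by a pair of libraries. Cells were placed in classes by scores of marker genes, none of them a Notch member. UMIs were summed per class and library and given as counts per 1e+06 UMIs of that sum (CPM). Mural endocardium, the lining of the chambers, held 4686 cells, valve endocardium 606, arterial coronary endothelium 265, other coronary endothelium 969, cardiomyocytes 17489 and mesenchyme 6963. Vascular mural cells (648 cells), epicardium (729 cells) and immune cells (744 cells) were described without a test. A class sum cannot tell apart fewer cells of a subtype within the class and less RNA per cell.

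Notch receptors are cleaved when a ligand on a neighbouring cell binds them, and the freed intracellular part enters the nucleus, where it joins RBPJ and switches on target genes such as those of the HES and HEY families. In the embryonic ventricle, Notch1 in the endocardium signals to the myocardium during trabeculation, and Dll4 and Notch signaling take part in the arterial identity of coronary vessels. Every value in CPM below is a level and every log2 value is a difference between eKO and control, or between classes where stated.

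Ets1, the deleted gene, was lower in both eKO libraries in each of the 4 endothelial classes. In mural endocardium it was at 283 and 264 CPM in the controls and at 120.1 and 92.8 CPM in the eKO. The log2 fold change was -1.31 (SE 0.15, adjusted p = 0.00045, edgeR's quasi-likelihood test, adjusted over all genes of the class by Benjamini-Hochberg, as for each adjusted p below). In valve endocardium the levels were 242, 245, 101 and 104 CPM in control 1, control 2, eKO 1 and eKO 2 (log2 -1.21, SE 0.16, adjusted p = 0.00505). Arterial coronary endothelium held 292 and 311 CPM against 168 and 119.96 CPM (log2 -0.98, SE 0.22, adjusted p = 0.00525), and other coronary endothelium 402 and 338 CPM against 181 and 127 CPM (log2 -1.19, SE 0.18, adjusted p = 0.00473). In no endothelial class did the groups overlap. The arterial call was lost without control 1 (adjusted p = 0.0852), without control 2 (0.149), without eKO 2 (0.096), without cycling cells (0.122) and with DESeq2 (0.2), and over its 12 alternatives the adjusted p ran from 0.000398 to 0.2. The call in other coronary endothelium was lost without control 1 (log2 -1.07, adjusted p = 0.0696) and without cycling cells (log2 -0.77, adjusted p = 0.999), the ends of its range being 7.36e-10 and 0.999. Ets1 transcript was still counted in the eKO. Tags of the 3′ end were counted, and the sources used here do not state which exons are floxed, so whether the counted part of the transcript lies in the deleted part is not given. Outside the endothelium Ets1 stood at 93.0 and 82.2 CPM in control and 57.6 and 54.4 CPM in eKO mesenchyme (log2 -0.56, SE 0.12, adjusted p = 0.154). In cardiomyocytes it stood at 6.42 and 6.06 CPM against 9.16 and 8.89 CPM (log2 0.65, SE 0.13, adjusted p = 0.402).

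No Notch member passed the test in any class. By the edgeR quasi-likelihood test, 0 of 49 member and class pairs were past the threshold of 0.05 after adjustment over all genes, against 8 at an unadjusted p under 0.05, and DESeq2 called 0. The other 11 of the 60 pairs fell below the filter on low counts. In mural endocardium 0 of 10 members were called where 3.8% of all 13019 genes tested were. The counts were 0 of 7 in valve endocardium beside 0.57% of 9655 genes, 0 of 7 in arterial coronary endothelium beside 1.05% of 7240 genes, and 0 of 8 in other coronary endothelium beside 0.975% of 10465 genes. Cardiomyocytes gave 0 of 9 members beside 0% of 15988 genes, with 1939 of those genes at an unadjusted p under 0.05 and 39 called by DESeq2, and mesenchyme 0 of 8 members beside 0.0547% of 14635 genes. At these shares of called genes, a count of 0 among 10 members is near the background. A p that misses the threshold does not show that a member was equal in both groups, and several members described next had groups that did not overlap.

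**Figure D1:**
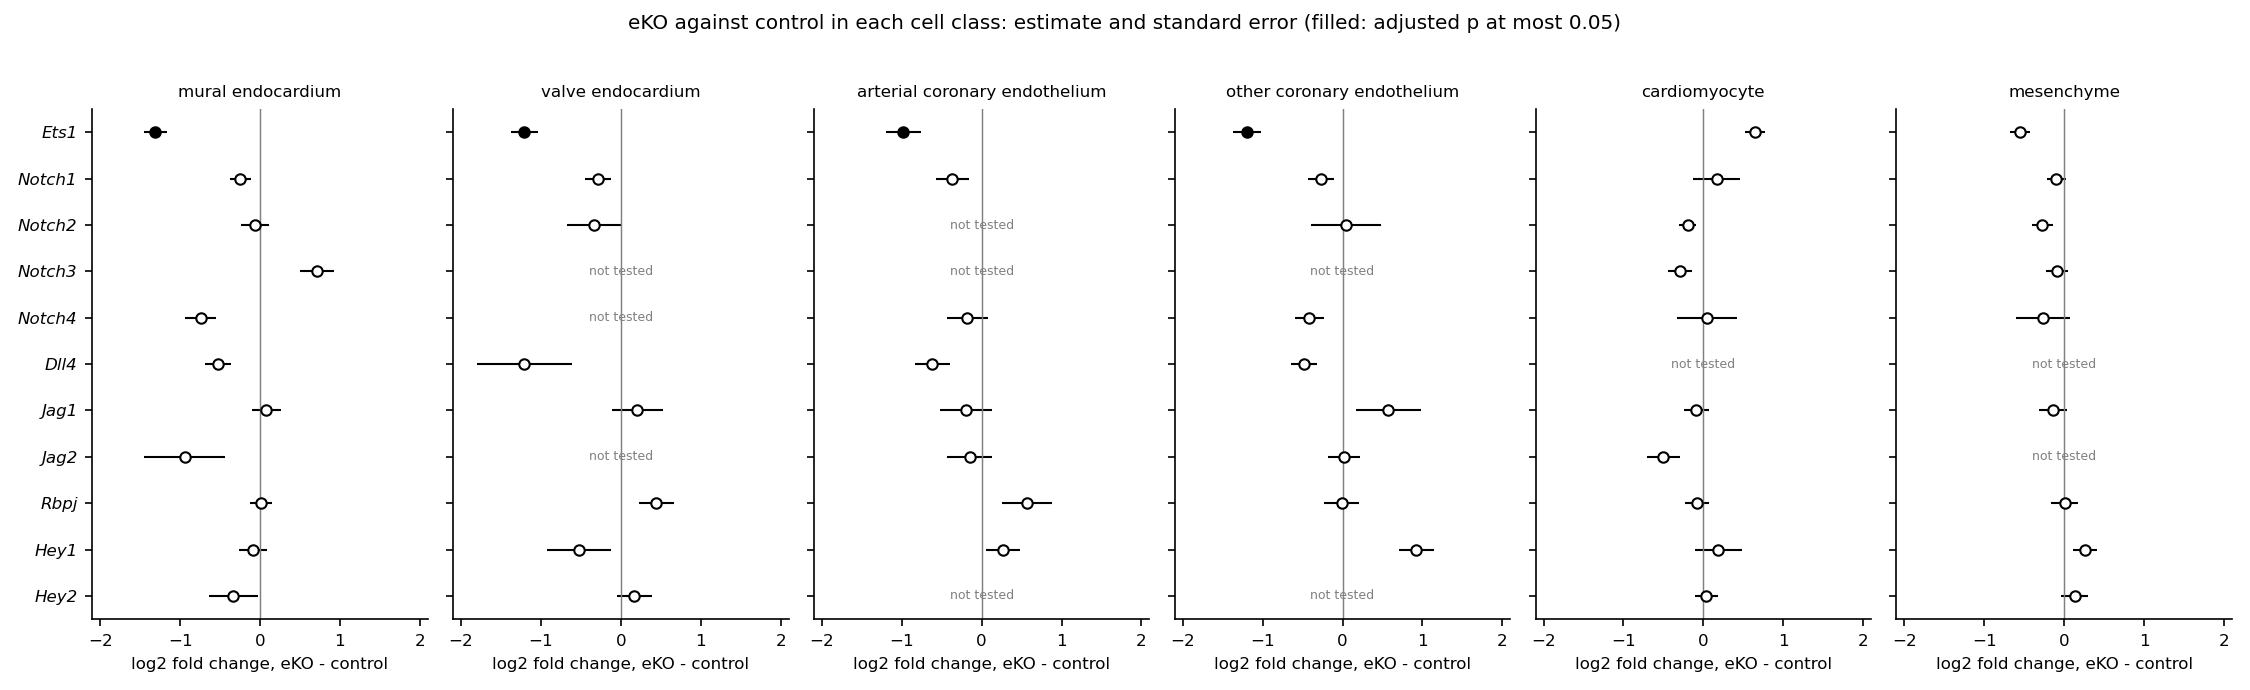
The log2 fold change of Ets1 and each Notch member, eKO against control, is plotted with its standard error for 6 cell classes, with 2 libraries per group, and filled points mark an adjusted p of at most 0.05. The filled points are those of Ets1 in the 4 endothelial classes, from -1.31 in mural endocardium to -0.98 in arterial coronary endothelium, and no Notch member has one.

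The members of each class are described next by their median log2 fold change, which was -0.17 in mural endocardium, where the median of all genes tested was 0.00, and -0.28 in valve endocardium, where it was 0.01. In arterial coronary endothelium the medians were -0.18 for members and 0.02 for all genes, and in other coronary endothelium 0.00 and 0.01. Below 0 were 7 of 10 members in mural endocardium, where 49.8% of all genes were, and 4 of 7 in valve endocardium, where 48.5% were. Groups did not overlap for 8 of 10 members in mural endocardium (6 lower and 2 higher in the eKO), beside 52.8% of all genes tested there. Of all those genes, 4229 were lower and 2639 higher in the eKO. The numbers lower and higher were 2413 and 1643 in valve endocardium, 1981 and 1058 in arterial, and 3024 and 1517 in other coronary endothelium. The count of members without overlap was 4 of 7 in valve endocardium beside 42%, and 4 of 7 in arterial coronary endothelium beside 42%. In other coronary endothelium 4 of 8 did not overlap, beside 43.4%. It was 4 of 9 in cardiomyocytes beside 49.3% and 4 of 8 in mesenchyme beside 46%. Lack of overlap was thus common among all genes with 2 libraries per group.

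Among the receptors, Notch1 and Notch4 stood lower and Notch3 higher in eKO mural endocardium, none past the threshold. Notch4, a receptor largely of endothelial cells, was counted at 22.5 and 26.1 CPM in control and 15.9 and 12.1 CPM in eKO mural endocardium, from 190, 170, 123 and 113 UMIs. Both eKO libraries lay below both controls. The log2 fold change was -0.74 (SE 0.19, unadjusted p = 0.00236, adjusted p = 0.0558). Notch4 passed the threshold with scaling by total counts (adjusted p = 0.0454), with no filter on low counts (0.00653), with the replicate number as a block (replicate block, 0.00365), without control 1 (0.0195) and without eKO 1 (0.00921), and over the 12 alternatives the adjusted p ran from 0.00365 to 0.189. In other coronary endothelium Notch4 stood at 46.8 and 54.6 CPM in control and 41.1 and 30.6 CPM in eKO (log2 -0.42, unadjusted p = 0.0415, adjusted p = 0.406), again without overlap, and with 1 library left out the value ran from -0.63 to -0.22. Arterial coronary endothelium had 72.6 and 94.3 CPM against 81.5 and 55.4 CPM, and there the groups overlapped (log2 -0.18). Valve endocardium held 20 UMIs of Notch4 in all and was not tested.

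Notch1, a receptor with known roles in the endocardium, was at 259 and 262 CPM in control and 211 and 211 CPM in eKO mural endocardium. The controls were above both eKO libraries, and the difference did not pass the test (log2 -0.25, SE 0.13, adjusted p = 0.298). The log2 fold change was -0.28 in valve endocardium, -0.37 in arterial and -0.27 in other coronary endothelium, with adjusted p of 0.557, 0.51 and 0.555. The 4 libraries, in the order control 1, control 2, eKO 1 and eKO 2, held 288, 255, 199 and 234 CPM in valve endocardium, 236, 257, 184 and 175 CPM in arterial coronary endothelium, and 145, 114, 100.4 and 105 CPM in other coronary endothelium. With 1 library left out the log2 fold change ran from -0.41 to -0.165 in valve endocardium and from -0.42 to -0.085 in other coronary endothelium. In each of these 3 classes, as in mural endocardium, both eKO libraries lay below both controls.

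Notch3, a receptor best known from pericytes and smooth muscle, was low in mural endocardium and moved the other way. It stood at 8.16 and 9.53 CPM in control and 12.8 and 14.9 CPM in eKO, from 69, 62, 99 and 139 UMIs. Both eKO libraries were above both controls (log2 0.71, SE 0.21, unadjusted p = 0.0056, adjusted p = 0.0819). The threshold was passed with no filter on low counts (adjusted p = 0.0219), with the replicate block (0.024), without cycling cells (log2 1.17, adjusted p = 0.0373) and without eKO 1 (0.0295), within a range of 0.0219 to 0.37 over its alternatives. The summed 8 markers of vascular mural cells were at 51.9 and 42.4 CPM in control and 72.9 and 56.9 CPM in eKO mural endocardium, with Pdgfrb the most abundant at 30.8 CPM and Higd1b at 0 in all 4 libraries. The summed 8 mesenchyme markers were at 553 and 505 CPM against 826 and 765 CPM, with Col3a1 the most abundant at 279 CPM, and Tcf21, one of them, at 0.473, 0, 0.259 and 0.428 CPM. Both sums were higher in the eKO together with Notch3, and their part in the result was not tested. In mesenchyme itself Notch3 was at 37.1 and 44.1 CPM in control and 38.4 and 33.1 CPM in eKO, with overlap.

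Notch2, a receptor found in many cell types, was near level in mural endocardium, at 24 and 27.7 CPM against 25.9 and 21.7 CPM (log2 -0.06). The log2 fold changes of Notch2 in the other classes tested ran from -0.33 in valve endocardium, where it was -0.54 to -0.077 with 1 library left out, to 0.04 in other coronary endothelium. In mesenchyme, where its level was highest, it was at 73.9 and 89.3 CPM in control and 68.7 and 57.9 CPM in eKO. The groups did not overlap there, but the difference was not called (log2 -0.27, and -0.40 to -0.16 with 1 library left out). Of the marker sums in mesenchyme, the 6 arterial markers were lower in the eKO, at 760 and 1006 CPM against 549 and 485 CPM (Mecom 660.5 CPM), as were the 8 vascular mural cell markers, at 164 and 159.8 CPM against 146.9 and 125.6 CPM (Pdgfrb 88.0 CPM). The 7 mural endocardium markers were lower too, at 633.9 and 744.4 CPM against 629.7 and 616.7 CPM (Cdh11 351 CPM). The 6 epicardium markers, at 77.7 and 67.5 CPM against 88.5 and 93.6 CPM (Wt1 59.0 CPM), the 4 venous markers, at 127 and 131 CPM against 138.3 and 138.1 CPM (Dab2 73 CPM), and the 3 compact cardiomyocyte markers, at 36.5 and 27.6 CPM against 45.6 and 51.0 CPM (Tnnt1 36.4 CPM), were higher. So were the 8 immune markers, at 6.43 and 6.21 CPM against 8.55 and 16.1 CPM (Tyrobp 1.85 CPM), and the part of these sums in the level of Notch2 was not tested.

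The promoters of Notch1 and Notch4 are shown because both receptors stood lower in both eKO libraries of mural endocardium, where Ets1, a factor of the ETS family, was lower. The 250 bases before the transcription start were taken from RefSeq (GRCm38.p6), on the strand of the gene. They were searched on both strands for CCGGAA and CAGGAA, words built on the core bound by ETS factors, and for GTGGGAA, a word bound by RBPJ. Capitals mark the matches. The sequence of Notch1 lies at chr2:26503823-26504072 on the minus strand, and that of Notch4 at chr17:34564045-34564294 on the plus strand. The GENCODE span of Notch1 given below (chr2:26457903-26516663) holds its whole window, so the RefSeq start used lies inside that span.
Notch1: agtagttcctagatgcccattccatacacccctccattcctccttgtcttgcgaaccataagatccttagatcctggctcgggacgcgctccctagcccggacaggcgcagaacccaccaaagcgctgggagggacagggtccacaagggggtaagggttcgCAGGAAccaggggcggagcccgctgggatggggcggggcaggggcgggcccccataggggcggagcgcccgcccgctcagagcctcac
Notch4: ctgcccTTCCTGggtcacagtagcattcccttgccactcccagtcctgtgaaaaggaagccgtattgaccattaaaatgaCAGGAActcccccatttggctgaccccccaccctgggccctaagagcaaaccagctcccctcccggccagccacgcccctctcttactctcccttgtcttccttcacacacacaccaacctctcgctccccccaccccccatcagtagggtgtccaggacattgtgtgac
Notch1 held CAGGAA at -88 to -83. Notch4 held CAGGAA at -170 to -165 and, on the other strand, as TTCCTG, at -244 to -239. Among all 32851 promoters of the same length, 25.7% held CAGGAA, 12.0% CCGGAA, 35.1% at least 1 of these words, which share no position, and 5.42% GTGGGAA. A match is a description of letters and was not tested for binding. A promoter was found for 9 of the 10 members, all but Hey1, and no ETS word was in those of Notch2, Notch3, Dll4, Jag1, Jag2, Rbpj and Hey2, which says only that these letters are not in this window.

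Of the ligands, Dll4 stood lower in both eKO libraries of all 4 endothelial classes, Jag2 in 3 of them on few UMIs outside arterial cells, and Jag1 in none. Dll4, a ligand of arterial and sprouting endothelium, was at 27.3 and 25.7 CPM in control and 17.5 and 18.0 CPM in eKO mural endocardium, from 231, 167, 135 and 168 UMIs. Its controls lay above both eKO libraries (log2 -0.52, SE 0.16, unadjusted p = 0.00802, adjusted p = 0.0981). In arterial coronary endothelium it was at 168 and 195 CPM against 97.5 and 123 CPM, again without overlap. The log2 fold change there was -0.62 (SE 0.22, unadjusted p = 0.00603, adjusted p = 0.178). Other coronary endothelium had 81.6 and 71.1 CPM in control and 48.4 and 55.9 CPM in eKO (log2 -0.48, SE 0.16, unadjusted p = 0.0103, adjusted p = 0.252). In valve endocardium the 4 libraries held 18, 11, 2 and 7 UMIs of Dll4, or 12.7, 9.22, 1.78 and 8.14 CPM, with SE 0.60 around a log2 fold change of -1.21 (adjusted p = 0.477). That value was -0.39 without eKO 1 and -2.53 without eKO 2, and the shares of valve cells with a Dll4 UMI, after thinning each cell to 2000 UMIs, overlapped at 1.35, 0.794, 0 and 1.18%, where the count of 0 in eKO 1 allows up to 2.098%. The 4 classes share their 4 libraries and are not independent replicates.

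Markers are given as the sum over a list. In mural endocardium the 7 markers of that class were themselves at 5681 and 5520 CPM in control and 4592 and 4166 CPM in eKO, with Tmem108 the most abundant at 1257 CPM. The 6 arterial markers, which were not used to gate the endocardium, were at 734 and 692 CPM against 540 and 498 CPM there, with Mecom the most abundant at 387 CPM. Both sums were lower in the eKO together with Notch1, Notch4 and Dll4, and so were the 4 venous markers, at 664 and 605 CPM against 494.5 and 475 CPM (Nr2f2 the most abundant at 307 CPM), and the 8 valve markers, at 280 and 287 CPM against 257 and 226 CPM (Nfatc1 92.8 CPM). The 8 cycle genes were higher in the eKO, at 529.9 and 721 CPM against 763 and 957 CPM (Top2a 203 CPM), as were the 8 coronary markers, at 317 and 278 CPM against 342 and 373 CPM (Cav1 173 CPM), and the 3 compact cardiomyocyte markers, at 33.8 and 24.1 CPM against 37.7 and 39.1 CPM (Tnnt1 28.2 CPM). The 8 pan-endothelial markers overlapped at 4537, 4355, 4048 and 4479 CPM.

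In arterial coronary endothelium, where Dll4, Notch1 and Jag2 were lower in both eKO libraries, the 6 arterial markers were lower too, at 2114 and 2224 CPM in control and 1861 and 1975 CPM in eKO, with Mecom the most abundant at 967 CPM. The 8 coronary markers were higher, at 8179 and 6936 CPM against 9539 and 10510 CPM (Fabp4 7027 CPM), and so were the cycle genes, at 598 and 601 CPM against 709 and 759.7 CPM (Top2a 171 CPM), and the 3 compact cardiomyocyte markers, at 42.4 and 52.6 CPM against 92.7 and 101.5 CPM (Tnnt1 65.2 CPM). The sum of the 8 cardiomyocyte markers, at 698.5 and 595 CPM against 704.6 and 1097 CPM (Tpm1 320.7 CPM), was higher as well, and so was that of the 6 epicardium markers, at 95.95 and 97.4 CPM against 124.6 and 116.9 CPM (Wt1 107.7 CPM). The 8 mesenchyme markers, at 98.6 and 38.6 CPM against 33.6 and 15.4 CPM (Col3a1 13.4 CPM), and the 8 valve markers, at 52.7 and 47.9 CPM against 38.4 and 27.7 CPM (Nfatc1 26.05 CPM), were lower. In valve endocardium the arterial markers were at 414 and 672 CPM in control and 328 and 230.3 CPM in eKO, with Mecom the most abundant at 225.5 CPM. There the 8 cardiomyocyte markers were higher in the eKO, at 801 and 633 CPM against 936 and 1277 CPM (Tpm1 230.5 CPM), as were the compact ones, at 50.2 and 37.7 CPM against 56.1 and 54.7 CPM (Crabp2 23.0 CPM). The mesenchyme markers, at 1067 and 969 CPM against 908 and 837 CPM (Col3a1 381 CPM), and the cycle genes, at 1021 and 1069 CPM against 971 and 948 CPM (Top2a 300.2 CPM), were lower. The part of these differences in the levels of the members was not tested.

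Jag1, a ligand of endothelium and smooth muscle, was even across the 4 mural endocardium libraries, at 16.1, 16.0, 16.2 and 16.4 CPM (log2 0.08). It was uneven elsewhere, with 24 and 46.1 CPM in control and 44.5 and 31.4 CPM in eKO valve endocardium, where the groups overlapped. Its log2 fold change ran from -0.20 in arterial to 0.57 in other coronary endothelium, and in the latter it rested on 73 UMIs. Jag2, a second Jagged ligand, was at 52.7 and 63.4 CPM in control and 49.5 and 47.7 CPM in eKO arterial coronary endothelium (log2 -0.15), with the sign turned without cycling cells (log2 0.13) and a range of -0.29 to -0.055 with 1 library left out. In other coronary endothelium it was level at 26.6, 24.8, 27.0 and 22.7 CPM (log2 0.02). Mural endocardium held 36 UMIs of Jag2 in all, at 1.42, 1.69, 0.906 and 0.642 CPM (log2 -0.94, adjusted p = 0.303).

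The promoter of Dll4 is shown because Dll4 was the ligand that stood lower in every endothelial class. It covers chr2:119325534-119325783 on the plus strand (RefSeq, GRCm38.p6), and no part is in capitals, since none of the 3 words searched was in it.
Dll4: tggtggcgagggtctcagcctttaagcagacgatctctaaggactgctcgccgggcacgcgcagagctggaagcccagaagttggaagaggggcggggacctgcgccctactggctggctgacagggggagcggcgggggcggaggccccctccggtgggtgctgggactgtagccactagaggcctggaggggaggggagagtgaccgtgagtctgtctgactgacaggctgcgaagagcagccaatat

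Rbpj, the DNA-binding protein through which all Notch receptors act, was not called in any class. In mural endocardium it was at 67.9 and 69.1 CPM in control and 72.2 and 61.0 CPM in eKO, with a log2 fold change of 0.01. In valve endocardium it was at 66.4 and 52.0 CPM against 89.1 and 66.3 CPM (log2 0.44, adjusted p = 0.474). Arterial coronary endothelium had 30.3 and 38.6 CPM against 57.5 and 36.9 CPM (log2 0.57, adjusted p = 0.488). With 1 library left out the value ran from 0.20 to 0.64 in valve and from 0.22 to 0.86 in arterial cells. In these 3 classes the groups overlapped, and eKO 1 held the highest value. In other coronary endothelium and in mesenchyme the log2 fold changes were -0.01 and 0.01.

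Of the effectors, Hey1 was higher in both eKO libraries of other coronary endothelium and nearly level in mural endocardium. Hey1, a transcriptional repressor switched on by Notch, was at 14.9 and 15.1 CPM in control and 26.6 and 27.4 CPM in eKO other coronary endothelium, from 51, 31, 66 and 76 UMIs. The eKO libraries lay above both controls (log2 0.92, SE 0.22, unadjusted p = 0.00075, adjusted p = 0.0639). It passed the threshold with no filter on low counts (adjusted p = 0.0156), its log2 fold change was 0.40 with classes from clusters (adjusted p = 0.478), and over its alternatives the adjusted p ran from 0.0156 to 0.708, without a value for the setting without cycling cells, where Hey1 fell under the filter. The 6 arterial markers were at 423 and 398 CPM in control and 438 and 366 CPM in eKO other coronary endothelium, with overlap. Other sums, 5 in all, did not overlap there. The 8 coronary markers were at 8936 and 7257 CPM against 9125 and 10630 CPM (Fabp4 the most abundant at 7218 CPM), and the 3 compact cardiomyocyte markers at 43.0 and 32.6 CPM against 93.1 and 72.1 CPM (Tnnt1 49.6 CPM, Crabp2 at 0 in 3 libraries). Lower in the eKO were the 4 venous markers, at 343 and 314 CPM against 304 and 281 CPM (Aplnr 122 CPM), the 8 valve markers, at 60.2 and 74.5 CPM against 56.0 and 53.7 CPM (Nfatc1 36.5 CPM), and the 8 cycle genes, at 1616 and 1586 CPM against 1486 and 1413 CPM (Top2a 420.4 CPM). Their part in the level of Hey1 was not tested. In mural endocardium Hey1 was at 20.9, 18.0, 17.6 and 17.8 CPM (log2 -0.08, adjusted p = 0.824), with both eKO libraries just under control 2. Arterial coronary endothelium had 166 and 162 CPM against 192 and 179.9 CPM, without overlap (log2 0.26, adjusted p = 0.689), and valve endocardium 12.7, 17.6, 9.80 and 10.5 CPM (log2 -0.52, -0.74 to -0.30 with 1 library left out, adjusted p = 0.672).

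Hey2, a related repressor that marks compact myocardium, was at 58.6 and 91.4 CPM in control and 79.3 and 82.6 CPM in eKO valve endocardium, where the groups overlapped (log2 0.17). In cardiomyocytes it was at 70.3, 64.9, 73.4 and 54.8 CPM (log2 0.04), also with overlap. Cardiomyocytes were further divided by markers into compact (3840 cells) and trabecular (9743 cells) ranges of a score, as a description without a test. Compact cells held 81.7 and 84.3 CPM of Hey2 in control and 78.8 and 68.1 CPM in eKO, and trabecular cells 62.4 and 51.4 CPM against 68.2 and 45.7 CPM. In each library the compact cells were above the trabecular cells, and Hey2 was not among the markers of the score. Mural endocardium held little Hey2, at 4.49, 4.3, 3.62 and 3.10 CPM (log2 -0.34).

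The promoter of Hey2 is shown because it was the one among the 9 members with a match to the RBPJ word. It covers chr10:30842784-30843033 on the minus strand (RefSeq, GRCm38.p6), and the capitals mark TTCCCAC, the reverse complement of GTGGGAA, at -207 to -201.
Hey2: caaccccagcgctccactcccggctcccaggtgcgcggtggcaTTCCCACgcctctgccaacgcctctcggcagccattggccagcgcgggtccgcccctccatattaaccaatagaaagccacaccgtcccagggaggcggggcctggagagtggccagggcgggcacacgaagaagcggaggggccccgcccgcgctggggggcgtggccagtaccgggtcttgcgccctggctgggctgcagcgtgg

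**Figure D2:**
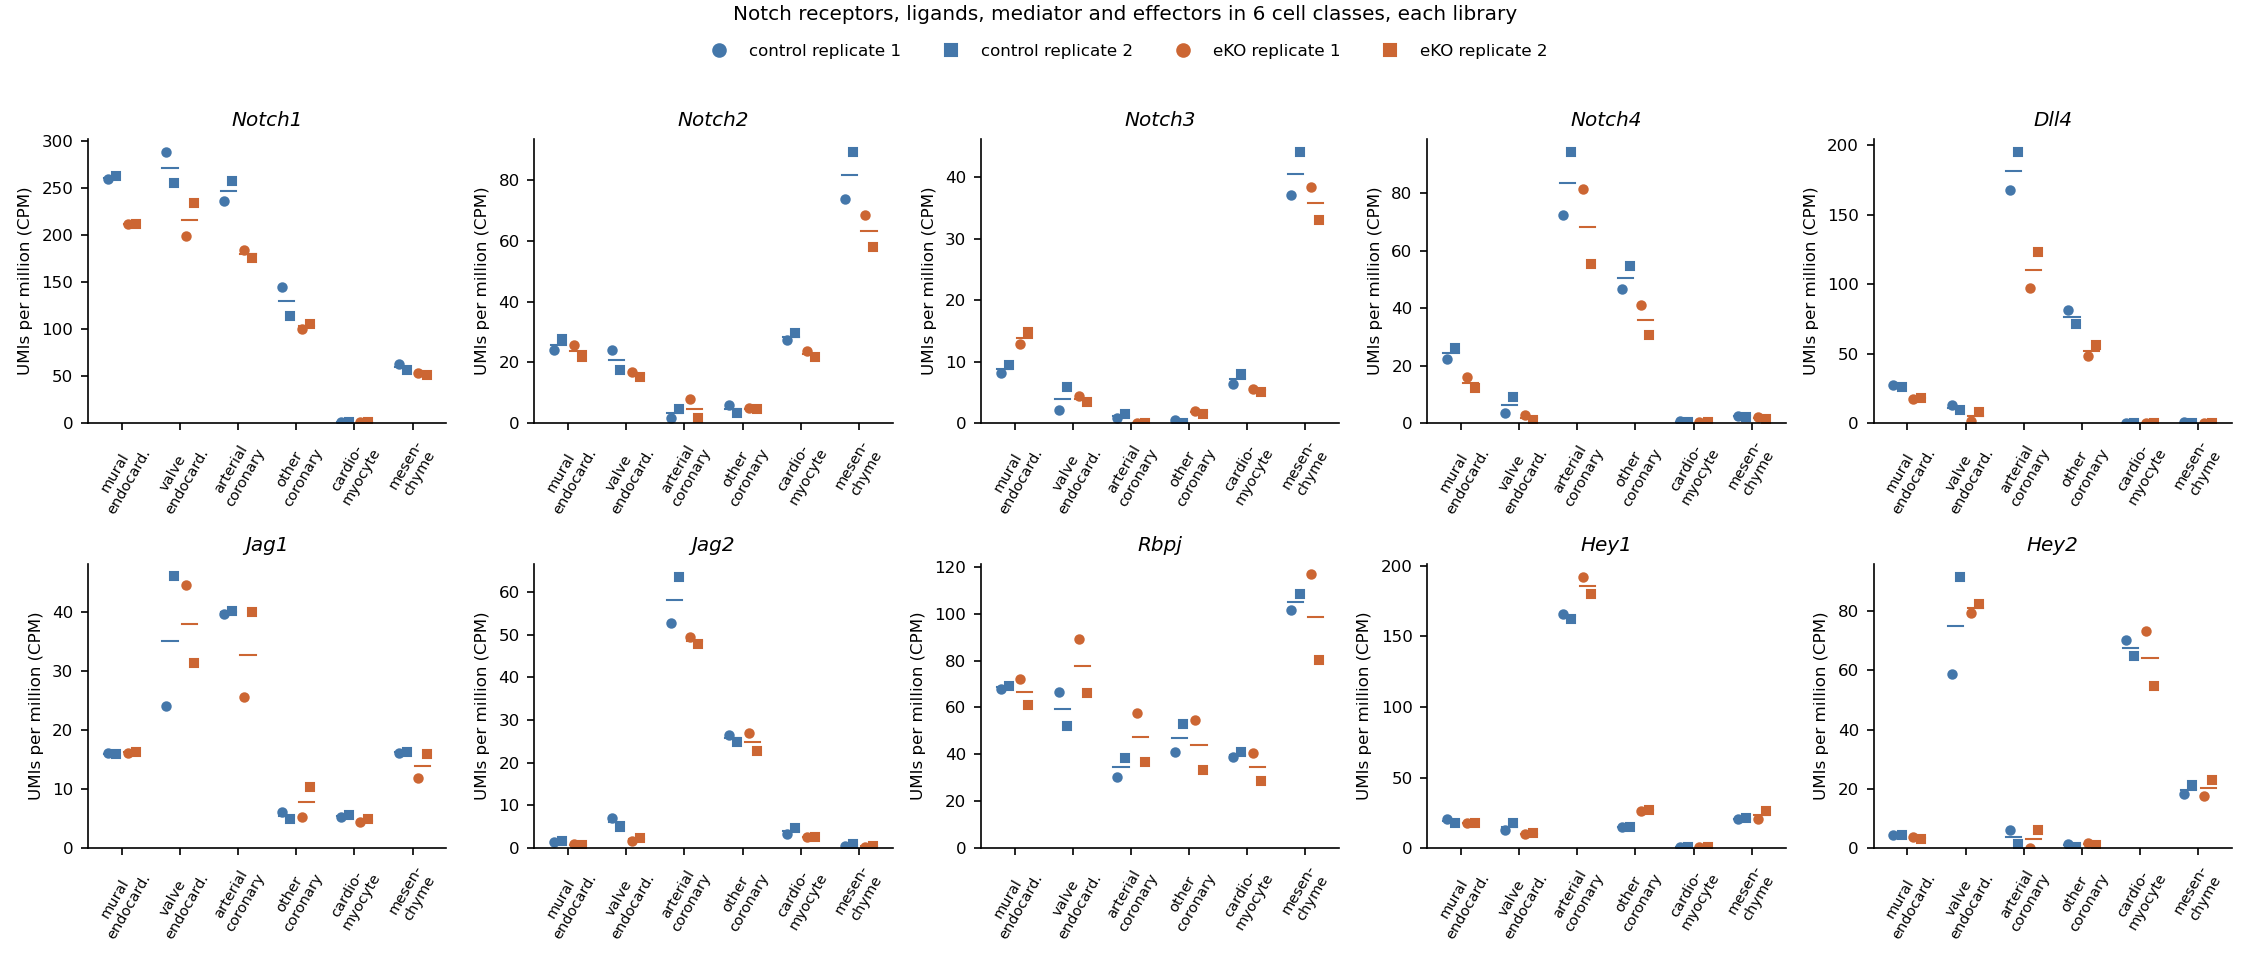
Levels of the 10 members in CPM are plotted for each of the 4 libraries in 6 cell classes, with lines for the means of the 2 control and 2 eKO libraries. Dll4 is at 168 and 195 CPM in control and 97.5 and 123 CPM in eKO arterial coronary endothelium. Hey2 has its highest mean in valve endocardium, at 58.6 to 91.4 CPM, which overlaps cardiomyocytes at 54.8 to 73.4 CPM.

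Whether the effect of the eKO differed between endothelial classes was tested with a class by condition term. Counts are given for members and genes that passed the filter on low counts in both classes, since one that passed in a single class has too few UMIs in the other. Hey1 was the 1 of 8 members past the threshold in mural endocardium against other coronary endothelium, where 1.98% of 10336 genes were called (1.65% of all 12700 in the test), and Notch3 and Hey2 passed the filter in mural endocardium alone. Its log2 fold change was lower in mural endocardium by a log2 difference of -1.02 (SE 0.24, unadjusted p = 0.000527, adjusted p = 0.0415). The call was lost with a wider gate (log2 -0.89, adjusted p = 0.0563), with classes from clusters (log2 -0.48, adjusted p = 0.451), without cycling cells (log2 -1.76, adjusted p = 0.635), without control 1 (log2 -0.88, adjusted p = 0.205), without eKO 1 (log2 -1.03, adjusted p = 0.0645) and without eKO 2 (log2 -0.997, adjusted p = 0.148). Without cycling cells Hey1 fell under the filter on low counts in other coronary endothelium, so that value rests on too few UMIs there. Over the alternatives of this difference, that setting included, the adjusted p ran from 0.011 to 0.635, and DESeq2 gave no adjusted p for Hey1 here. Arterial against other coronary endothelium gave 0 of 7 members beside 0.415% of 7229 genes (0.319% of all 10031), with 1 at an unadjusted p under 0.05 by edgeR and 0 by DESeq2, and that 1 was Hey1 (log2 -0.66, SE 0.25, adjusted p = 0.427).

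The other members gave no difference between classes that passed the test. Mural against valve endocardium gave 0 of 7 members beside 1.58% of 9572 genes (1.2% of all 12673), with 0 at an unadjusted p under 0.05 by edgeR and 0 by DESeq2, which gave Dll4 and Hey1 no adjusted p. Notch3, Notch4 and Jag2, at 18, 20 and 20 UMIs in valve endocardium, passed the filter in mural endocardium alone, and nothing is said of their effects. Mural endocardium against arterial coronary endothelium gave 0 of 7 members beside 1.24% of 7198 genes (0.812% of all 12322), with 0 at an unadjusted p under 0.05 by edgeR and 0 by DESeq2, which gave Jag1 and Jag2 no adjusted p. Notch2, Notch3 and Hey2, at 11, 2 and 12 UMIs in arterial cells, were left out of this count. For Dll4 the eKO effect differed by log2 -0.04 (SE 0.17) between mural endocardium and other coronary endothelium and by 0.09 (SE 0.22) between mural endocardium and arterial coronary endothelium. For Notch1 these differences were 0.03 (SE 0.14) and 0.12 (SE 0.17). Notch4 differed by -0.31 (SE 0.19) and -0.54 (SE 0.28), with adjusted p of 0.595 and 0.619.

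Levels were also compared between the endothelial classes, over both genotypes and for members that passed the filter in both. Mural and valve endocardium differed in 4 of 7 such members, beside 31.9% of 9572 genes (30.8% of all 12673). Hey2 was lower in mural than in valve endocardium by a log2 difference of -4.25 (adjusted p = 3.6e-10), with Jag1 at -1.09. Dll4 at 1.53 and Hey1 at 0.60 were higher in mural endocardium. Notch1, Notch2 and Rbpj did not pass, at 0.01, 0.46 and 0.05. Notch3, Notch4 and Jag2 passed the filter in mural endocardium alone, and no difference is given for them.

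Mural endocardium and other coronary endothelium differed in 7 of the 8 members that passed in both, beside 64.8% of 10336 genes (63.9% of all 12700). Jag2 was lower in mural endocardium by a log2 difference of -4.61, Dll4 by -1.70 and Notch4 by -1.35. Notch2 was higher by 2.19, Jag1 by 1.10, Notch1 by 0.87 and Rbpj by 0.44. Hey1 did not pass, at -0.32. Notch3 and Hey2, at 11 and 13 UMIs in other coronary endothelium, passed the filter in mural endocardium alone and are left out. Between arterial and other coronary endothelium 6 of 7 members differed, beside 34.7% of 7229 genes (30.6% of all 10031), and all 6 were higher in arterial cells. The log2 differences were 3.13 for Hey1, 2.49 for Jag1, 1.20 for Dll4, 1.11 for Jag2, 0.90 for Notch1 and 0.84 for Notch4. Rbpj did not pass, at -0.14.

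Over all 9 classes each member had its own order of levels, given here as the mean and SD of the 4 libraries. Notch1 was highest in valve endocardium (244 ± 37.3 CPM), mural endocardium (236 ± 28.6 CPM) and arterial coronary endothelium (213 ± 39.6 CPM), which overlapped. Vascular mural cells (138 ± 13.9 CPM) and other coronary endothelium (116 ± 20.1 CPM) overlapped next, followed by mesenchyme (55.6 ± 5.09 CPM) and immune cells (28.6 ± 6.64 CPM) without overlap, epicardium (4.17 ± 1.44 CPM) and cardiomyocytes (1.00 ± 0.178 CPM). Notch2 was highest in mesenchyme (72.5 ± 13 CPM), which overlapped immune cells (49.0 ± 11.3 CPM), and lowest in both coronary classes, at 4.69 ± 0.999 CPM and 3.97 ± 3.03 CPM, which overlapped. Notch3 and Notch4 were higher in single classes. Notch3 was highest in vascular mural cells (149.6 ± 30.9 CPM), then mesenchyme (38.2 ± 4.54 CPM) and mural endocardium (11.3 ± 3.06 CPM), with no overlap between these 3, and mural endocardium overlapped epicardium (9.69 ± 3.62 CPM). Notch4 fell in order from arterial (75.9 ± 16.4 CPM) to other coronary endothelium (43.3 ± 10.1 CPM) and mural endocardium (19.2 ± 6.32 CPM) with no overlap, and vascular mural cells (5.50 ± 2.74 CPM) and valve endocardium (4.15 ± 3.52 CPM) overlapped.

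Among the ligands, Dll4 and Jag2 had their highest mean in the arterial class, and Jag1 in vascular mural cells. Dll4 ran from arterial (146 ± 43.7 CPM) to other coronary endothelium (64.2 ± 14.9 CPM) and mural endocardium (22.1 ± 5.11 CPM) without overlap, and vascular mural cells (8.33 ± 4.27 CPM) overlapped valve endocardium (7.97 ± 4.56 CPM). Jag2 was highest in arterial (53.3 ± 7.02 CPM), then in other coronary endothelium (25.3 ± 1.96 CPM), and at or under 4.06 CPM on average elsewhere. Jag1 was highest in vascular mural cells (43.9 ± 16.5 CPM), valve endocardium (36.5 ± 10.6 CPM) and arterial coronary endothelium (36.4 ± 7.21 CPM), all overlapping, with mural endocardium (16.2 ± 0.168 CPM) and mesenchyme (15.1 ± 2.1 CPM) next and overlapping. Rbpj, in contrast, was highest in immune cells (265 ± 61.9 CPM), then mesenchyme (102 ± 15.5 CPM), vascular mural cells (96.3 ± 19.5 CPM) and epicardium (94.7 ± 10.3 CPM), these 3 overlapping. Its lowest means were in other coronary endothelium (45.5 ± 10.3 CPM), arterial coronary endothelium (40.8 ± 11.7 CPM) and cardiomyocytes (37.3 ± 5.75 CPM), which overlapped. Hey1 was highest in arterial coronary endothelium (175 ± 13.5 CPM), then in vascular mural cells (60.1 ± 9.32 CPM). Mesenchyme (22.3 ± 2.81 CPM), other coronary endothelium (21 ± 6.93 CPM), mural endocardium (18.6 ± 1.58 CPM) and valve endocardium (12.6 ± 3.53 CPM) followed, each overlapping its neighbour. Hey2 was highest in valve endocardium (78.0 ± 13.9 CPM), cardiomyocytes (65.8 ± 8.16 CPM) and vascular mural cells (60.4 ± 10.4 CPM), which overlapped.

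Coronary cells were also followed along the arterial marker score, in a low range (the other coronary endothelium), a range between the limits with 57, 27, 53 and 83 cells in control 1, control 2, eKO 1 and eKO 2, and the arterial range. Hey1 averaged 21, 47.1 and 175 CPM over these ranges, and Dll4 64.2, 82.8 and 146 CPM. Jag2 stood at 25.3, 36.5 and 53.3 CPM, Notch4 at 43.3, 50 and 75.9 CPM, and Notch1 at 116, 136 and 213 CPM. These 5 members were thus highest at the arterial end, as a description, since the score orders the cells by arterial genes. Jag1 was level over the first ranges, at 6.68 and 6.82 CPM, before 36.4 CPM in arterial cells, and Rbpj had no order, at 45.5, 38.1 and 40.8 CPM. In the range between the limits Dll4 was at 136 and 73.2 CPM in control and 73.7 and 47.8 CPM in eKO, which overlapped, and Hey1 at 46.3 and 33.8 CPM against 50.2 and 58.3 CPM, which did not. In CPM, Hey1 was thus higher in both eKO libraries in all 3 ranges. The share of arterial cells with a Hey1 UMI lay the other way on average. After thinning each cell to 2000 UMIs it was 29.6% in control and 27.0% in eKO, with overlap. Without thinning it was 69.9 and 64.3%, without overlap, and both eKO libraries were shallower per arterial cell.

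**Figure D3:**
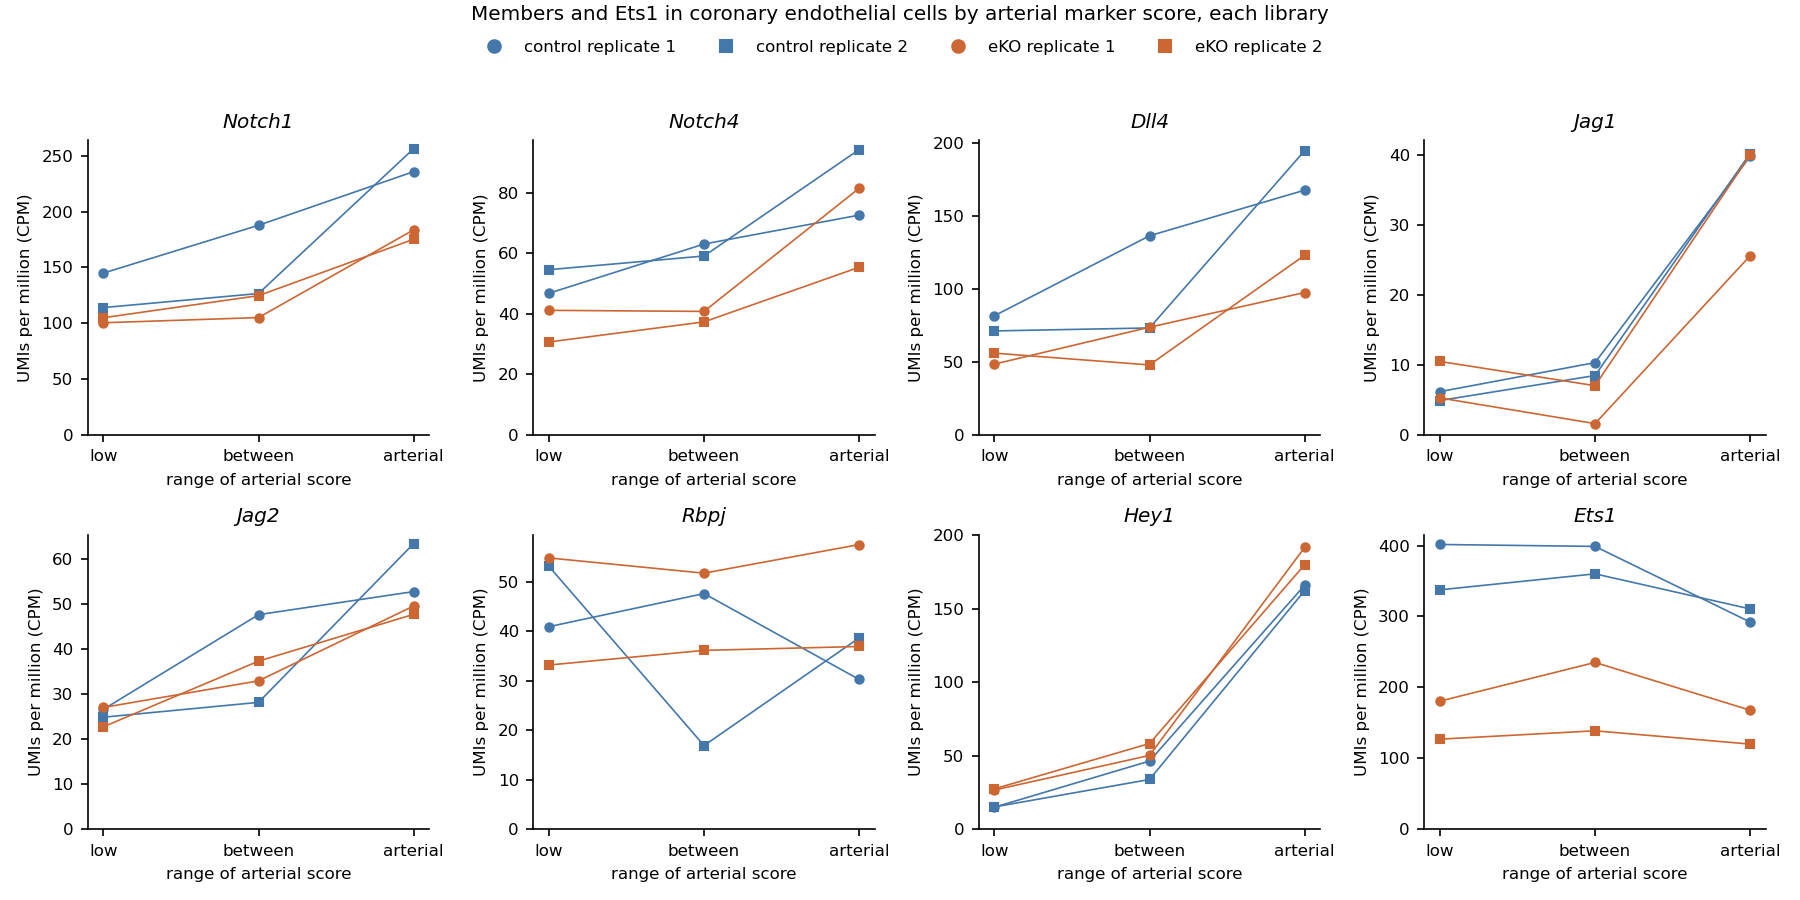
The levels of Notch1, Notch4, Dll4, Jag1, Jag2, Rbpj, Hey1 and Ets1 in CPM are plotted for each of the 4 libraries over the low, between and arterial ranges of the arterial marker score in coronary endothelium. Hey1 averages 21, 47.1 and 175 CPM over the ranges, with the eKO libraries above the controls in each.

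The share of cells with at least 1 UMI was compared after each cell was thinned to 2000 UMIs, since eKO 2 was shallower. In mural endocardium the share with Dll4 was 6.53% in control 1 (95% exact Clopper-Pearson interval 5.08 to 8.23), 5.99% in control 2 (4.38 to 7.95), 3.83% in eKO 1 (2.70 to 5.26) and 3.51% in eKO 2 (2.70 to 4.48). Both eKO libraries were below both controls, by 2.59 points on average (exact permutation test, two-sided, p = 0.3333, the smallest that 2 against 2 libraries allow). Cells below 2000 UMIs, 53, 30, 33 and 117 in control 1, control 2, eKO 1 and eKO 2, were left out, and the median depths were 6718, 7232, 6805 and 4240 UMIs. Without thinning the shares were 18.0, 17.9, 12.8 and 8.49%. In immune cells, of 6302, 6971, 6128 and 3725 UMIs, no Dll4 UMI was found in 159, 84, 173 and 257 thinned cells, which allows shares up to 1.89, 3.57, 1.73 and 1.17% of cells with a UMI (3 counts), with exact upper bounds of 2.29, 4.297, 2.11 and 1.43%. In cardiomyocytes, at medians of 11770, 12694, 12353 and 7579 UMIs, the shares with Dll4 were 0.021, 0, 0.0281 and 0.0182%, with 0.115% allowed by the count of 0. The share in mural endocardium was above these limits and bounds in each of the 4 libraries.

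In other coronary endothelium the shares with Dll4 after thinning were 16.5 and 15.6% in the controls against 6.19 and 10.4% in the eKO, with 7, 5, 12 and 21 cells left out and 52.6, 50, 36.4 and 30.7% unthinned. The eKO libraries lay below the controls by 7.79 points on average (exact permutation test, two-sided, p = 0.3333). Notch1 was found in 37.8 and 42.9% of control and 33.7 and 35.5% of eKO mural endocardial cells, and Notch4 in 4.25 and 4.90% against 2.55 and 2.49%. Neither pair of groups overlapped, at differences of -5.69 and -2.05 points (exact permutation test, two-sided, p = 0.3333 for each). The difference for Notch1 was -3.15 points without control 2 and -8.22 points without control 1. The shares with Notch1 overlapped in other coronary endothelium, at 22.3, 20.6, 16.5 and 21.9% (-2.24 points, exact permutation test, two-sided, p = 0.667), and the difference was 0.462 points without eKO 1 and -4.95 points without eKO 2. Notch1 was found in 3.77, 7.14, 1.16 and 6.23% of immune cells and in at most 0.294% of cardiomyocytes of any library. Without thinning, 1 immune cell each of control 1, control 2 and eKO 1 held a Notch4 UMI. After thinning, Notch4 was found in no immune cell, with the limits and bounds given for Dll4, and in at most 0.168% of cardiomyocytes. The thinned shares in mural endocardium were above these in each library. Hey1 in mural endocardium was at 4.25, 3.40, 3.83 and 3.34%, with overlap (exact permutation test, two-sided, p = 0.667). In other coronary endothelium it was found in 4, 3, 5 and 16 thinned cells, or 1.65, 2.13, 2.58 and 4.61%, with intervals from 0.452 to 4.18 in control 1 and from 2.66 to 7.38 in eKO 2. For Hey1 the share was 0.629% in immune cells of control 1 (0.0159 to 3.45) and 0 in the others, with the same bounds, and at most 0.269% in cardiomyocytes. After thinning, the shares in other coronary endothelium of both controls, and that in mural endocardium of control 2, were thus within what the immune cells allow.

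The other genes of the pathway, 74 in 8 lists, gave few calls. In mural endocardium 4 of 65 genes tested were past the threshold, 2 higher and 2 lower in the eKO, where 3.8% of all genes were. Their median log2 fold change was -0.23, against 0.00 for all genes. By list the medians were -0.30 for RBPJ coactivators, -0.27 for ubiquitination and trafficking, -0.25 for proteases, -0.20 for other target genes, -0.08 for glycosyltransferases and -0.06 for RBPJ corepressors. The other HES and HEY effectors gave 0.09 over 4 genes and the other ligands 0.93 over 2. Valve endocardium gave 1 of 55, beside 0.57% of all genes, with medians of 0.02 for these genes and 0.01 for all, and arterial coronary endothelium 1 of 44, beside 1.05%, with medians of -0.12 and 0.02. DESeq2 gave 0 in each, with an adjusted p for 24 of the 55 in valve endocardium.

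The 4 genes in mural endocardium were Psen2, Mfng, Heyl and Dlk1. Psen2, a catalytic subunit of the gamma-secretase that cleaves Notch, was at 39.0 and 32.1 CPM in control and 17.1 and 15.5 CPM in eKO. Both eKO libraries were lower, and Psen2 fell by 1.07 on the log2 scale (SE 0.17, adjusted p = 0.0041), past the threshold under all 12 alternatives. Mfng, a glycosyltransferase that modifies Notch receptors, was at 9.70 and 9.37 CPM against 2.85 and 4.17 CPM. It fell by 1.36 on the log2 scale (SE 0.28, adjusted p = 0.0192), a call lost with classes from clusters (log2 -1.11, adjusted p = 0.0842, range 4.12e-05 to 0.0842). Dlk1, a ligand-like protein without the domain that activates Notch in canonical ligands, was at 99.7 and 74.8 CPM in control and 228 and 297 CPM in eKO. It rose, with both eKO libraries above both controls (log2 1.65, SE 0.18, adjusted p = 0.000313). The marker sums given above for this class differed in the same libraries, with mural endocardium markers lower and mesenchyme markers higher in the eKO. Their part in the levels of Psen2, Mfng and Dlk1 was not tested.

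Heyl, the relative of Hey1 and Hey2 best known from smooth muscle, was low in mural endocardium, at 13, 5, 35 and 38 UMIs, or 1.54 and 0.768 CPM in control and 4.53 and 4.07 CPM in eKO. It rose by a log2 fold change of 1.89 (SE 0.41, adjusted p = 0.0244), a call lost without cycling cells (adjusted p = 0.0868), without control 2 (0.0557) and with DESeq2 (0.0606), in a range of 0.000116 to 0.0868. The vascular mural cell and mesenchyme marker sums given beside Notch3 were higher in the same eKO libraries, and their part in this result was not tested either.

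Dlk1 in valve endocardium rested on 0 and 2 UMIs in control and 12 and 14 UMIs in eKO, at 0, 1.68, 10.7 and 16.3 CPM. The ratio of eKO to control was 17.1 (95% exact counting interval 4.28 to 149, adjusted p = 0.0468). The call was lost without control 1 (adjusted p = 0.182), without eKO 1 (0.098) and with doublets kept (0.0501), in a range of 2.23e-05 to 0.182 over the 7 of 12 alternatives that gave an adjusted p. DESeq2 gave none, and Dlk1 fell under the filter on low counts with a wider gate, with classes from clusters, without cycling cells and without eKO 2. The fitted log2 value of 3.97 became 2.95 without control 1. Without control 2 the control left held 0 UMIs, so the fitted 6.93 of that setting gives no exact size. Hes5, a Notch target, was at 76.1 and 29.4 CPM in control and 24 and 13.8 CPM in eKO arterial coronary endothelium, from 88, 19, 15 and 9 UMIs. Control 1 stood far above the other 3 libraries, and the fall of log2 -1.50 (SE 0.37, adjusted p = 0.0151) was -0.54 without control 1 (adjusted p = 0.845). The call was also lost without eKO 2 (log2 -1.16, adjusted p = 0.175), with doublets kept (log2 -1.22, adjusted p = 0.196) and with DESeq2 (adjusted p = 1), over a range of 0.000122 to 1 that lacks the setting without cycling cells, where Hes5 fell under the filter.

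**Figure D4:**
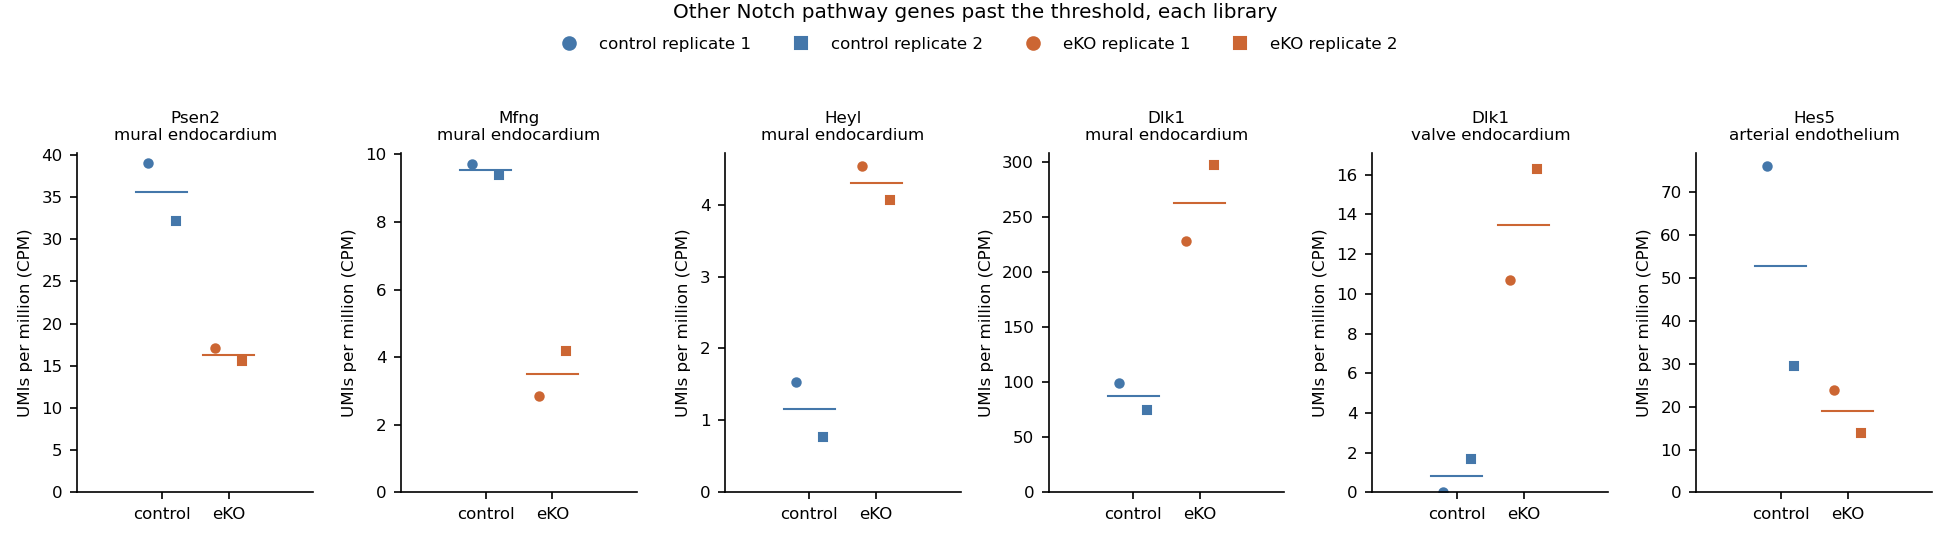
Levels of Psen2, Mfng, Heyl and Dlk1 in mural endocardium, of Dlk1 in valve endocardium and of Hes5 in arterial coronary endothelium are plotted in CPM for the 2 control and 2 eKO libraries, with lines for the group means. Dlk1 in mural endocardium is at 99.7 and 74.8 CPM in control and 228 and 297 CPM in eKO, and Hes5 is at 76.1 CPM in control 1 and 13.8 to 29.4 CPM in the others.

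Hes1, a target of Notch in many tissues, was at 176 and 173 CPM in control and 132 and 119 CPM in eKO other coronary endothelium, without overlap and without a call (log2 -0.40, SE 0.15, adjusted p = 0.299). It was lower also in arterial coronary endothelium, at 151 and 108 CPM against 91.1 and 66.1 CPM (log2 -0.67, SE 0.23, adjusted p = 0.156). There the sign turned without cycling cells (log2 0.12), and with 1 library left out the value ran from -0.92 to -0.37. In mural endocardium its groups overlapped (log2 -0.16). Nrg1, a growth factor that endocardium sends to the myocardium, was at 327 and 347 CPM in control and 252 and 281 CPM in eKO mural endocardium, without overlap (log2 -0.28, SE 0.14, adjusted p = 0.279, and -0.38 to -0.18 with 1 library left out). In valve endocardium it lay the other way, at 163 and 220.5 CPM against 254 and 295 CPM (log2 0.57, SE 0.18, adjusted p = 0.231).

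Outside the endothelium no gene of the pathway lists was called. In other coronary endothelium too the count was 0 of 54 by edgeR, beside 0.975% of all genes, with 7 at an unadjusted p under 0.05 and 0 by DESeq2. Cardiomyocytes gave 0 of 66 (8 at an unadjusted p under 0.05, 0 by DESeq2) and mesenchyme 0 of 69 (11 and 0), where 0% and 0.0547% of all genes were called. At these shares lists of this size would hold under 1 call each. Of the members, cardiomyocytes held Hey2, Rbpj and Notch2 at means of 65.8, 37.3 and 25.7 CPM and each of the others under 7 CPM. Their member with an unadjusted p under 0.05 was Jag2, at 3.27 and 4.78 CPM in control and 2.62 and 2.55 CPM in eKO (log2 -0.50, -0.75 to -0.24 with 1 library left out, unadjusted p = 0.0445, adjusted p = 0.41). Of the marker sums in cardiomyocytes, the 8 cardiomyocyte markers were higher in the eKO, at 43700 and 41840 CPM against 44780 and 45020 CPM. So were the 3 compact markers, at 1122 and 1095 CPM against 1478 and 1288 CPM. Lower were the 8 mesenchyme markers, at 21.2 and 24.5 CPM against 17.7 and 19.8 CPM. The 8 vascular mural cell markers, at 102.6 and 111.4 CPM against 97.7 and 89.8 CPM, were lower too. The part of these sums in the levels of the members was not tested. Scaling by total counts moved the median of all genes in cardiomyocytes from 0.01 to -0.10, and the members' values there are relative to that shift. The median moved down in mesenchyme too, to -0.080, and in the endothelial classes, as given above. In mesenchyme the member with the highest level was Rbpj, at 101 and 108 CPM in control and 117 and 80.4 CPM in eKO, with overlap. The medians of the members were -0.08 in cardiomyocytes and -0.09 in mesenchyme, against 0.01 for all genes in each.

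For each member the 3 genes most alike across classes were taken by the Pearson correlation of log2(CPM + 1) over 24 points, the 6 classes in each of 4 libraries, so that points share libraries and depth. Notch1 was most like Cyfip1 (0.988), Npdc1 (0.987) and Col18a1 (0.982). Notch4 was most like Ushbp1 (0.976), Exoc3l (0.974) and Fzd4 (0.973), and Dll4 like Ccdc85b (0.986), Grap (0.984) and Vasp (0.983). Notch2 went with Casc4 (0.963), Igsf3 and Dzip1 (0.958), and Notch3 with Fam110b (0.951), Lpar1 (0.941) and Igsf3 (0.938). Of the Jagged ligands, Jag2 was most like Plekha1 (0.977), Ptp4a3 and Depp1 (0.973), while the highest value for Jag1 was 0.91, with Eva1c, ahead of Plcd3 (0.884) and Sfxn3 (0.879). Rbpj was most like Cspp1 (0.952), Fip1l1 (0.922) and Rtf1 (0.921). Hey1 stood nearest Krtcap2 (0.961), Rnf20 (0.955) and S100a11 (0.951), and Hey2 nearest Epdr1 (0.929), Isyna1 (0.916) and Ccdc141 (0.913). No other member was among the 3 genes nearest to a member.

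By position, Notch1 (chr2:26457903-26516663), Dll4 (chr2:119325784-119335962) and Jag1 (chr2:137081456-137116644) lie on chromosome 2, and Notch3 (chr17:32120820-32166852) and Notch4 (chr17:34564268-34588503) on chromosome 17. Notch2 (chr3:98013527-98150361) and Hey1 (chr3:8663359-8667256) share chromosome 3. Jag2 (chr12:112907819-112929776), Rbpj (chr5:53466152-53657362) and Hey2 (chr10:30832359-30842801) are alone on theirs, in GENCODE vM21 on GRCm38. The gene identifiers in the tables were ENSMUSG00000026923 for Notch1, ENSMUSG00000015468 for Notch4, ENSMUSG00000027314 for Dll4 and ENSMUSG00000040289 for Hey1.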

How the data were processed

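The deposited files hold UMI counts per gene and cell barcode, which the authors made with Cell Ranger 7.1.0 against mm10 before their work in Seurat 4.3.0, as their processing notes state. Cells with 200 to 7000 genes and at most 20% mitochondrial, 35% ribosomal and 2% hemoglobin UMIs were kept, and predicted doublets were removed by nearest neighbours among simulated doublets (scikit-learn 1.9.0). Of cells with at least 1000 UMIs, the broad class was that of the best marker score, at least 0.3 and 0.1 above the next. Endothelial cells were then divided into mural, valve and coronary by the best score, 0.1 above the next, with no lower limit. A score was the mean of the scaled log levels of a marker list, divided by its percentile 99. Coronary cells at an arterial score of 0.3 or more were arterial, and those at 0.2 or less other coronary endothelium. For each class the UMIs of a library were added up, and the sums were compared with edgeR 4.0.16 (TMM, filterByExpr, quasi-likelihood, Benjamini-Hochberg, threshold 0.05) in R 4.3.3. The difference between classes used a class by condition term with library as a factor, and is counted over genes past the filter in both classes, a restriction added after the values were seen. DESeq2 1.42.0 and the other alternatives are given in the closing section, and the steps were tested on simulated data. No correction for free RNA in droplets was made here. The authors name such a correction among their steps, and the files do not state whether the deposited counts had it, which bears on low counts and on background shares.

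The text names all 10 members and Ets1 in 6 classes, the pathway genes past the threshold in an endothelial class, Dlk1, Nrg1, Hes1 and Heyl, and the 3 genes most like each member among those with a mean of 20 CPM in a class. Summed markers of other cell types and their most abundant gene are given. The members and lists were chosen by known roles, with earlier results of these data known. Tools were Python 3.11.15, numpy 2.4.6, scipy 1.17.1, pandas 2.3.3, igraph 0.11.9 and matplotlib 3.10.9.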

Additional observations from a re-analysis of the deposited data

Results flagged for a closer look

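One result differed between 2 cell classes under the same comparison of eKO with control. The log2 fold change of Hey1 was lower in mural endocardium than in other coronary endothelium by a log2 difference of -1.02 (SE 0.24, adjusted p = 0.0415, edgeR quasi-likelihood test of the class by condition term). Hey1 was at 20.9, 18.0, 17.6 and 17.8 CPM in mural endocardium and at 14.9, 15.1, 26.6 and 27.4 CPM in other coronary endothelium of control 1, control 2, eKO 1 and eKO 2. Over its alternatives the adjusted p ran from 0.011 to 0.635, and the settings in which the call was lost are given above. The upper end is the setting without cycling cells, where Hey1 fell under the filter on low counts in other coronary endothelium. With classes from clusters the log2 difference was smaller in size. It was -0.88 without control 1, -1.03 without eKO 1 and -0.997 without eKO 2. DESeq2 gave it no adjusted p. The cause was not tested.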

How the results depend on the processing

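Of the 49 fold changes of members, 25 kept their sign under each setting that gave a value and 24 changed it in at least 1. The count of members past the threshold was 1 with scaling by total counts, 3 with no filter on low counts, 2 with the replicate number as a block (replicate block), 1 without cycling cells and 0 to 2 with 1 library left out. The count of members whose effect differed between classes was 0 with a wider gate and without cycling cells, and 0 to 1 with 1 library left out, although with classes from clusters the 1 was Hey2 in mural against valve endocardium (log2 -1.35, adjusted p = 0.0121). It was 0 also with DESeq2, but there Hey1, the member called, had no adjusted p in mural against other coronary endothelium, nor had 5 others of the 10, so this 0 says nothing of its stability. Without cycling cells Hey1 fell under the filter in other coronary endothelium, so the 0 of that setting says nothing of Hey1 either. DESeq2 gave no adjusted p for 5 of the 49 fold changes, nor for Dlk1 in valve endocardium. A gene under the filter has no value. This held without cycling cells for Dll4, Dlk1, Hey1 and Notch2 in valve endocardium, Jag2 in mural endocardium, Rbpj and Hes5 in arterial and Hey1, Jag1, Jag2 and Notch2 in other coronary endothelium, with a wider gate for Dll4, Dlk1 and Jag2 in the same classes, and with clusters or without eKO 2 for Dlk1.

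Genes past the threshold numbered 1225 in mural endocardium with no filter, 1266 with the replicate block and 260 with classes from clusters. Valve endocardium gave 246 with no filter, 189 with the block, 13 with a wider gate, 84 without cycling cells and 28 with DESeq2. Arterial coronary endothelium gave 124 with total scaling, 40 with doublets kept, 20 without cycling cells and 9 with DESeq2, and other coronary endothelium 282 with no filter, 61 with doublets kept, 2 without cycling cells and 51 with DESeq2. Cardiomyocytes gave 1 with total scaling, 366 with no filter, 68 with the block, 1 without cycling cells and 39 with DESeq2. Mesenchyme gave 20 with total scaling, 128 with the block, 3 with a wider gate, 3 with classes from clusters and 108 with DESeq2. With 1 library left out the counts ran from 459 to 1676 (without eKO 1) in mural endocardium, 85 to 117 in valve endocardium, 38 (without control 1 or 2) to 124 (without eKO 1) in arterial and 37 (without eKO 2) to 74 in other coronary endothelium, 6 to 2541 (without eKO 1) in cardiomyocytes and 65 to 260 (without control 1) in mesenchyme. The fit without filter tests more genes and the one without cycling cells fewer cells; beyond this the cause was not tested.

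Signs that turned, as log2 fold changes, were in mural endocardium Jag1 -0.12 with clusters, Rbpj -0.042 with total scaling, -0.018 with a wider gate and -0.078 without cycling cells, and Hey1 0.068 with a wider gate. Without cycling cells valve endocardium gave Jag1 -0.45 and Hey2 -0.058, and arterial coronary endothelium Jag2 0.13 and Hes1 0.12. Other coronary endothelium gave Notch2 -0.033 with total scaling, -0.17 with doublets kept, -0.19 with a wider gate and -0.14 with clusters, Jag2 -0.060 with total scaling and -0.074 with clusters, and Rbpj 0.019 with clusters. Cardiomyocytes gave Notch4 -0.068 and Hey2 -0.078 with total scaling and Jag1 0.14 without cycling cells. Mesenchyme gave Rbpj -0.084 with total scaling, -0.0077 with no filter, -0.019 with the replicate block, -0.013 with a wider gate and -0.059 without cycling cells, and Hey2 -0.069 without cycling cells. The cause was not tested.

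With 1 library left out, where the lone library of a group is assumed to vary like the other group, signs turned within these ranges. Mural endocardium had Notch2 -0.19 to 0.080, Rbpj -0.090 to 0.11 and Hey1 -0.15 to 0.0057. Valve endocardium had Jag1 -0.21 to 0.71 and Hey2 -0.13 to 0.49, and arterial coronary endothelium Notch4 -0.47 to 0.086 and Jag1 -0.55 to 0.086. Other coronary endothelium had Notch2 -0.22 to 0.54, Jag1 -0.038 to 0.97, Jag2 -0.11 to 0.13 and Rbpj -0.39 to 0.32. Cardiomyocytes had Notch1 -0.072 to 0.49, Notch4 -0.26 to 0.59, Jag1 -0.22 to 0.040, Rbpj -0.32 to 0.12, Hey1 -0.10 to 0.44 and Hey2 -0.15 to 0.20. Mesenchyme had Notch1 -0.21 to 0.014, Notch3 -0.20 to 0.0086, Jag1 -0.35 to 0.065, Rbpj -0.29 to 0.24 and Hey2 -0.071 to 0.32.

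The replicate numbers are shared by name, and nothing else links a control to an eKO library. Correlations of paired libraries after removal of the group means ran from -0.244 to -0.0451 over the 6 classes, so the unpaired fit was kept. With 2 libraries per group the exact permutation test cannot go below p = 0.3333. The arterial class held 42 to 83 cells per library, and eKO 2 was the shallowest, so a member under about 20 UMIs in a class was not tested or had a wide error. Of the 1454 coronary cells 220 lay between the arterial limits, and 443 of 7189 endothelial cells between the gates. Clusters placed 185 of the 265 arterial cells and 52 of the 969 other coronary cells in arterial clusters, and what these 52 cells add to Hey1, which is higher in arterial cells, was not tested.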
